A study of Mus musculus with 7 samples.

Results

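The G2/M and mitosis genes are 51 genes whose products drive cells into mitosis, build the spindle and divide the cell. They were chosen by name, by matching the gene identifiers of the deposited count table, without the version number, to a fixed set of 51 mouse symbols. All 51 were among the 53379 genes of the table, and all 51 passed the filter on low counts that left 12161 genes to be tested. The RNA came from natural killer (NK) cells, innate lymphocytes that kill infected and transformed cells, sorted from the spleens of C57BL/6 mice as viable CD45+ (written C45+ in the labels) CD3- NK1.1+ NKp46+ CD49b+ cells with no culture step. There were 4 libraries from Hhex KO samples, labelled as lacking the homeobox transcription factor Hhex, and 3 from Cre control samples. The labels name neither the Cre driver nor the floxed allele, the age or the sex, and they do not say what Cre the Hhex KO samples carry. The series text calls the samples biological replicates without tying each to an animal.

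Most NK cells of a resting spleen are not dividing, so transcripts of this kind are thought to come mostly from the cycling minority. Which cells carried them was not measured here. In a dividing cell, cyclin A and cyclin B bind the kinase CDK1 and push the cell from G2 into mitosis; Aurora and Polo-like kinases then shape the spindle, the kinetochore attaches chromosomes to it, the spindle checkpoint holds back the anaphase-promoting complex until all are attached, and a contractile ring finally separates the daughters. The genes share a timing of transcription. In resting cells the DREAM complex holds many of them off through a short promoter element, the cell cycle genes homology region (CHR), and in G2 B-Myb and FOXM1 join the same core complex and turn them on, often with the factor NF-Y bound to CCAAT boxes nearby.

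That element can be read in the promoters of the listed genes. RefSeq promoter windows on GRCm38.p6 (250 bases before to 50 after each start site) were found for 41 of the 51 genes, 44 windows in all since Cep55, Ect2 and Prc1 have 2 each. The stretches that follow lie before the start site and show the arrangement at 8 of these genes, 5′ to 3′ on the gene's own strand. Capitals mark the CHR core (TTTGAA, or TTCAAA when it lies on the other strand), its variant TTCGAA, and the CCAAT box (ATTGG on the other strand).
Cdk1, chr10:69352922-69353012, minus strand: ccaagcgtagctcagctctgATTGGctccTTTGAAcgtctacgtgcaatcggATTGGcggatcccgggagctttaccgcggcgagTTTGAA
Ccnb2, chr9:70421555-70421654, minus strand: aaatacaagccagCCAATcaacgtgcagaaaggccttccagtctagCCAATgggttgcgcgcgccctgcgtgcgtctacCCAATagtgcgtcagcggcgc
Cdc20, chr4:118437353-118437443, minus strand: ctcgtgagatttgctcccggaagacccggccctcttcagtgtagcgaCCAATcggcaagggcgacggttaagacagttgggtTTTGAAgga
Ube2c, chr2:164769829-164769905, plus strand: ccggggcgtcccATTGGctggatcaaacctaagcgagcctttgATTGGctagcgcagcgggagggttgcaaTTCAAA
Ckap2l, chr2:129297213-129297342, minus strand: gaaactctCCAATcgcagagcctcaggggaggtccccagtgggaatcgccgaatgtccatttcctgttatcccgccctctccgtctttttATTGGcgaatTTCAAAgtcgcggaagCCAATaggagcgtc
Kif11, chr19:37376282-37376381, plus strand: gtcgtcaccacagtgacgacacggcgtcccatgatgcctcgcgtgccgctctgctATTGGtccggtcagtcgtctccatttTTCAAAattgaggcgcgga
Top2a, chr11:99024190-99024389, minus strand: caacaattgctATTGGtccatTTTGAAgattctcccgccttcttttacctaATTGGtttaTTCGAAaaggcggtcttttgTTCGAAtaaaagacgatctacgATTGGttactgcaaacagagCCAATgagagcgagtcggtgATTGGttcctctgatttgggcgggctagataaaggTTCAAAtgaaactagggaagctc
Mki67, chr7:135716380-135716579, minus strand: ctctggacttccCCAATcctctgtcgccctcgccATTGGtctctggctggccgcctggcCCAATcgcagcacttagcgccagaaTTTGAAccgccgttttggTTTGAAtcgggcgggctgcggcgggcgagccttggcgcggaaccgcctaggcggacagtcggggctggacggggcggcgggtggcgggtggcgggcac
Cdk1 has a CHR core that begins 15 bases before the start site and another at 71, with CCAAT boxes at 48 and 80 in the stretch shown. Ccnb2 shows 3 CCAAT boxes at 21, 54 and 87 bases before the start, and its CHR cores lie outside the stretch shown, 1 of them just after the start site. In Mki67 both CHR cores lie further out, at 98 and 116 bases.

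The CHR core was common in these windows and crowded around the start site. With both strands searched and the motifs counted independently of each other, TTTGAA occurred in 33 of 44 windows (75%), against 17.9% of all 32851 promoter windows of the same length. A match beginning between 50 bases before and 50 bases after the start was present in 31 of the 44 (70.5%), against 4.94% of all windows. A CCAAT box was present in 31 (70.5%, against 37.4%), and at least 2 in 22 (50%, against 11.7%). Both the CHR core and a CCAAT box were found in 26 (59.1%, against 6.95%). The variant TTCGAA was in 4 (9.09%, against 1.56%). For comparison, TTTGAA within 50 bases of the start was present in 3 of 40 windows of the S phase genes described further on (7.5%), whose CCAAT boxes were nearly as common, in 23 (57.5%). The other mitosis genes described further on lay between, with TTTGAA within 50 bases of the start in 19 of 58 windows (32.8%). Anywhere in the window they held TTTGAA in 28 (48.3%) and a CCAAT box in 38 (65.5%). Windows of members that rose in Hhex KO held TTTGAA in 14 of 20 cases (70%) and those of the other members in 19 of 24 (79.2%). Birc5, Mad2l1, Melk, Nuf2, Nusap1 and Tacc3 had none of the 3 motifs in this window. A match describes letters in the window and is no measure of binding.

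**Figure D1:**
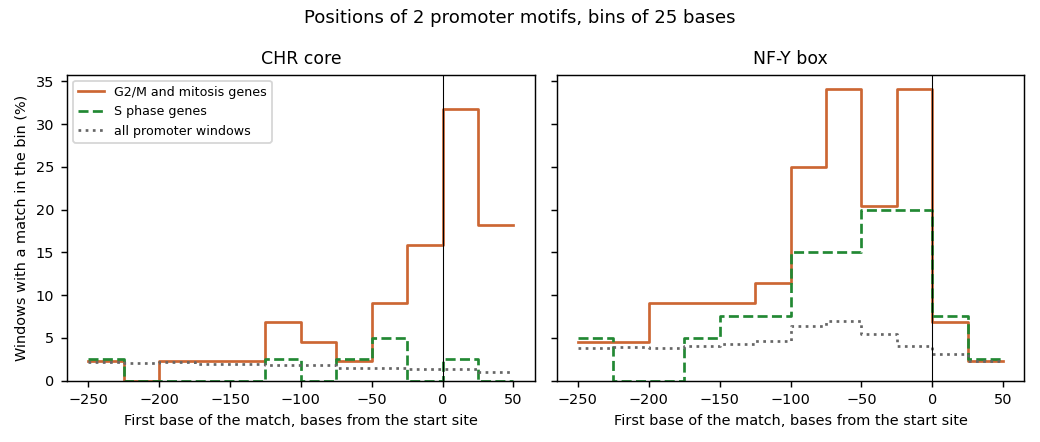
Share of promoter windows (%) with a match beginning in each bin of 25 bases, by distance from the RefSeq start site, for the CHR core (left) and the CCAAT box bound by NF-Y (right); the lines are the 44 windows of the G2/M and mitosis genes, the 40 windows of S phase genes and all 32851 windows. The CHR core of the G2/M and mitosis genes peaks around the start site (70.5% of windows within 50 bases), where the S phase genes (7.5%) and all windows (4.94%) stay low. The other mitosis genes (32.8%) are not drawn.

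Total counts ranged from 10589915 to 18456404 per library. The sorted cells carried NK cell transcripts in every library, with 12 of 12 markers (among them Ncr1, Klrb1c, Eomes and Prf1) read in all 7 and a summed level of 20697 to 25548 CPM in the control libraries, and 16684 to 22341 CPM in those of Hhex KO. Hhex itself was read at 93.5 to 96.1 CPM in the controls but 54.2 to 64.8 CPM in the knockouts, lower and not absent. The labels do not say which part of the gene was deleted. Markers of other cells differed between libraries. Those of type 1 innate lymphoid cells (9 genes, among them Cxcr6 and Itga1) were all called higher in Hhex KO, against 2.68% of all genes tested. Their summed levels were 94.2 to 119.6 CPM in the control libraries, and 498 to 675 CPM in those of Hhex KO, which do not overlap. B cell markers (8 genes) summed to 15.5 to 22.3 CPM in the control libraries, and 65.1 to 121 CPM in those of Hhex KO; the inhibitory receptor gene Cd22 made up most of this, and the other 7 summed to 2.54 to 5.4 CPM among controls against 4.69 to 45.1 CPM among knockouts. The highest of these sums was in Hhex KO replicate 1, where Ms4a1 was at 9.91 CPM; Cd79a, Ebf1, Fcer2a and Pax5 were at 0 in some libraries. Neutrophil markers (8 genes) summed to 23.9 to 58.8 CPM in the control libraries, and 15.1 to 472 CPM in those of Hhex KO, with the highest level in Hhex KO replicate 2; Ly6g was at 0 in some libraries. T cell markers (9 genes) summed to 68.95 to 93.2 CPM in the control libraries, and 85.02 to 158 CPM in those of Hhex KO, with Cd8a and Cd8b1 at 0 in some libraries. Erythroid markers (10 genes) summed to 201 to 263 CPM in the control libraries, and 278 to 512 CPM in those of Hhex KO; without Car2 the other 9 summed to 26.7 to 46.4 and 17.3 to 67.7 CPM. Plasma cell (7 genes, 232 to 253 CPM in the control libraries, and 224 to 273 CPM in those of Hhex KO), monocyte or macrophage (8 genes, 36.5 to 124 CPM in the control libraries, and 7.35 to 246 CPM in those of Hhex KO) and dendritic cell markers (6 genes, 478 to 834 CPM in the control libraries, and 691 to 957 CPM in those of Hhex KO) overlapped between the groups. The part of these cells in the levels of the mitosis genes was not tested. In the deposited table the columns of Cre control carry the numbers 20 to 22 and those of Hhex KO 26, 27, 28 and 95; the sources used here do not say whether replicate 4 was handled apart from the others.

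All 51 genes were read at a higher average level in Hhex KO than in Cre control, and 22 of them rose by the test across all genes. The summed level of the 51 genes was 432, 744 and 726 CPM (counts relative to the scaled library size) in the control libraries numbered 1, 2 and 3, and 1866, 1753, 1808 and 998 CPM in the Hhex KO libraries numbered 1 to 4. Every Hhex KO library thus lay above every Cre control library, with replicate 4 the lowest of its group and Cre control replicate 1 the lowest of all. Racgap1, Cdc25b and Top2a had the highest CPM of the list and weigh most in these sums. These are bulk samples, in which a larger share of dividing cells and more of these transcripts per cell, dividing or not, cannot be told apart.

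A gene was called when edgeR's quasi-likelihood test, adjusted over all 12161 genes by the Benjamini-Hochberg method, gave a value below 0.05, with n = 4 Hhex KO and n = 3 Cre control. The 22 higher genes are 43.1% of the 51. Among all genes tested, 2.68% were called higher and 1.87% lower. The 2.68% is also the share to set beside each count by role given below. In fits on 6 of the 7 libraries the 22 became 1 at the lowest, with Cre control replicate 3 left out (0.766% of all genes), and 41 at the highest, with Hhex KO replicate 4 left out (4.35%). None of the 51 was called lower by edgeR, DESeq2 or limma-voom, nor had any a negative change at an unadjusted p under 0.05. A positive log2 fold change was found for 51 of 51, against 52.7% of all genes, and one of at least 1 for 41 of 51, against 4.98%. Unadjusted p-values were under 0.05 for 50 of 51, against 18.5%. The median log2 fold change over the 51 was 1.68, against 0.02 over all genes tested, and the values ran from 0.39 for Cks2 to 2.58 for Mki67. In 43 of 51 every Hhex KO library lay above every Cre control library, as it did for 9.37% of all genes. The 8 exceptions were Melk, Cdca8, Tpx2, Ttk, Ube2c, Kif11, Kif20b and Top2a, and in 7 of them Hhex KO replicate 4 was the single library that did not clear the controls. The genes nearest the threshold were Spc24 (adjusted p = 0.0472) and Kif23 (0.0476) inside it, and Kif2c (0.0549), Kif4 (0.0622) and Pbk (0.0626) outside, although their log2 fold changes, 2.31, 1.8 and 2.06, were larger than those of Spc24 (1.55) and Kif23 (1.59).

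**Figure D2:**
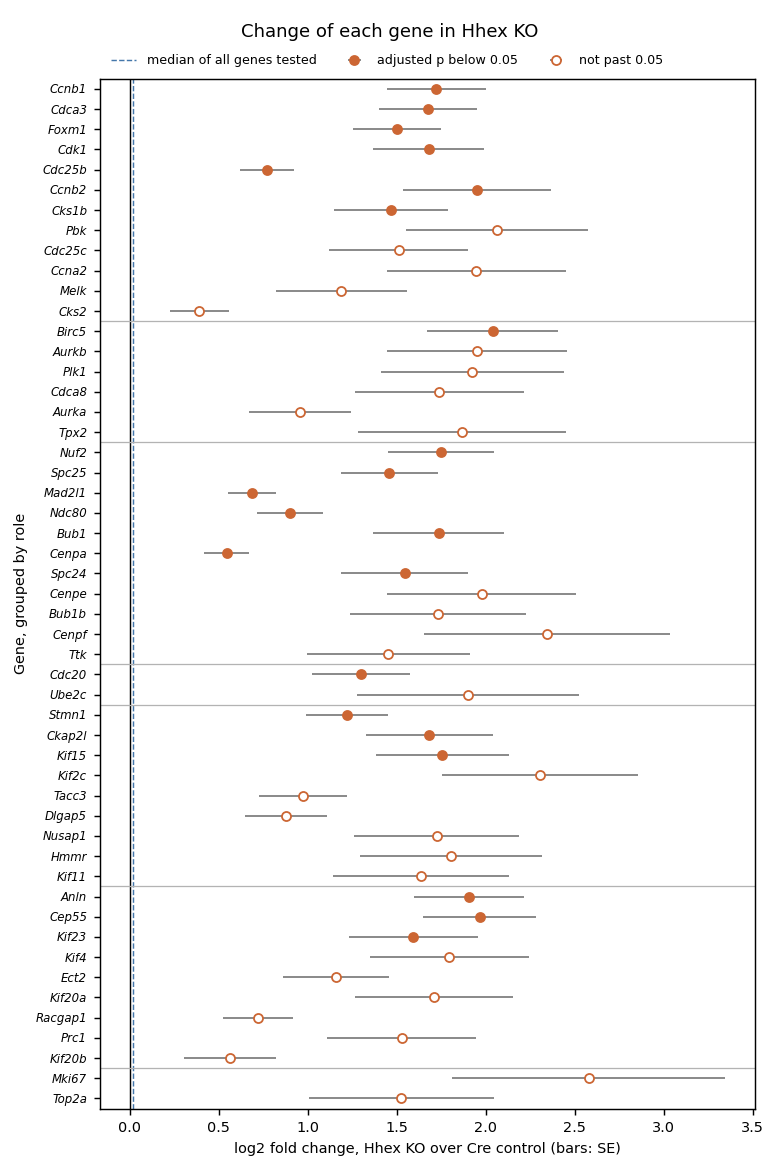
Log2 fold change of each of the 51 genes, Hhex KO (n = 4) over Cre control (n = 3), with its standard error, grouped by role from entry into mitosis (top) to mitotic chromosomes (bottom); filled points have an adjusted p below 0.05 and the dashed line is the median of all genes tested. All 51 points lie to the right of 0, 22 are filled, and the widest bars belong to Mki67 and Cenpf.

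Genes of entry into mitosis held many of the calls: 7 of 12 rose and 5 did not pass the test. The count ran from 0 (without Cre control replicate 3) to 10 (without Hhex KO replicate 4) when 1 library was dropped. In the values that follow, libraries are given in the order of their replicate numbers. Ccnb1, which encodes cyclin B1 (ENSMUSG00000041431.16, chromosome 13, 100778650 to 100786570), was at 2.32, 3.61 and 2.65 CPM in Cre control and 9.002, 10.7, 11.8 and 6.11 CPM in Hhex KO. Cdk1, the kinase that cyclin B activates (ENSMUSG00000019942.13, chromosome 10, 69335146 to 69352938), was at 5.47, 10.7 and 8.81 CPM in Cre control and 25.6, 30.1, 35.05 and 15.9 CPM in Hhex KO. In both genes the groups did not overlap and the lowest Hhex KO library was replicate 4. Their log2 fold changes were 1.72 ± 0.28 (SE, adjusted p = 0.0123) and 1.68 ± 0.31 (adjusted p = 0.0219), or 3.303-fold and 3.21-fold. Reads of Ccnb1 are uncertain, since 18.9% of the 75-base stretches of its transcripts occur unchanged in another annotated gene, among them the pseudogene Ccnb1-ps. Foxm1, the transcription factor that activates many of the genes described here (ENSMUSG00000001517.14, chromosome 6, 128362967 to 128376146), was at 5.92, 8.45 and 7.73 CPM in Cre control and 27.6, 20.5, 21.6 and 13.6 CPM in Hhex KO, again with no overlap. Its log2 fold change was 1.5 ± 0.25 (adjusted p = 0.0128). Cdca3, which promotes the destruction of the CDK1 inhibitor WEE1 (ENSMUSG00000023505.13, chromosome 6, 124829547 to 124833701), was at 4.05, 8.27 and 7.19 CPM in Cre control and 22.7, 21.9, 23.9 and 14.4 CPM in Hhex KO. The change of Cdca3 was 1.68 ± 0.27 (adjusted p = 0.0123), and here Hhex KO replicates 1 to 3 were close together.

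The other called genes of this role were Ccnb2, cyclin B2 (log2 fold change 1.95 ± 0.42), Cks1b, a CDK subunit (1.47 ± 0.32), and Cdc25b, a phosphatase that activates CDK1 (0.77 ± 0.15). Cdc25b was the most abundant of the role, at 78.7 ± 12.6 CPM (SD, n = 3) in Cre control and 134 ± 16.8 CPM (SD, n = 4) in Hhex KO. Per transcript length it was at 68.3 and 116 TPM (a scale that divides by transcript length), against 0.513 and 1.47 TPM for its relative Cdc25c. Ccna2, cyclin A2, had a larger log2 fold change, 1.95 ± 0.50, but did not pass the test (adjusted p = 0.073): its Hhex KO libraries ran from 24.3 CPM in replicate 4 to 79.3 CPM in replicate 3, and its Cre control libraries from 5.85 to 20.9 CPM. The kinase genes Pbk (2.06 ± 0.51) and Melk (1.19 ± 0.37) and Cdc25c (1.51 ± 0.39) did not pass it either. Cks2, the paralogue of Cks1b, had the smallest change of all 51 genes, 0.39 ± 0.16 (adjusted p = 0.248). It was at 7.79, 6.16 and 7.13 CPM in Cre control and 8.16, 9.74, 9.84 and 9.21 CPM in Hhex KO, so the groups did not overlap although the difference was small. Of the Cks2 stretches, 26.9% occur in another gene, and its level is uncertain.

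Among the Aurora and Polo kinases and their partners 1 of 6 rose. Dropping 1 library took the count as low as 0 (without Cre control replicates 1 or 3) and as high as 6 (without Hhex KO replicate 4). Birc5, which encodes survivin, a subunit of the chromosomal passenger complex (ENSMUSG00000017716.15, chromosome 11, 117849251 to 117855743), was at 3.07, 8.45 and 6.92 CPM in Cre control and 23.8, 29.6, 31.7 and 15.6 CPM in Hhex KO. The groups did not overlap, and Birc5 rose by 2.04 ± 0.37 on the log2 scale (adjusted p = 0.0204), or 4.11-fold. Aurkb, the kinase of the same complex (ENSMUSG00000020897.12, chromosome 11, 69045647 to 69051664), was at 2.398, 8.095 and 6.97 CPM in Cre control and 22.7, 27.4, 30.6 and 8.94 CPM in Hhex KO. Plk1, Polo-like kinase 1 (ENSMUSG00000030867.7, chromosome 7, 122159439 to 122169873), was at 1.95, 7.57 and 4.97 CPM in Cre control and 18.5, 19.7, 26.9 and 7.705 CPM in Hhex KO. Both followed the pattern of Birc5 in Hhex KO replicates 1 to 3, but replicate 4 came within about 1 CPM of the highest control, and with log2 fold changes of 1.95 ± 0.50 and 1.92 ± 0.51 they did not pass the test (adjusted p = 0.072 and 0.0807). Cdca8, which encodes borealin of the passenger complex (1.74 ± 0.47), Tpx2, the activator of Aurora A (1.87 ± 0.58), and Aurka itself (0.96 ± 0.29) were not called, and Cdca8 and Tpx2 overlapped between the groups.

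Of the 11 kinetochore and spindle checkpoint genes 7 rose. Over fits on 6 libraries the count ranged from 0 (without Cre control replicates 1 or 3) to 8 (without Hhex KO replicate 4). The kinetochore attaches to microtubules through the NDC80 complex, and all 4 of its subunits were called. Nuf2 (ENSMUSG00000026683.14, chromosome 1, 169497934 to 169531464) was at 3.75, 6.69 and 6.54 CPM in Cre control and 18.98, 21.02, 24.4 and 11.6 CPM in Hhex KO. Spc25 (ENSMUSG00000005233.16, chromosome 2, 69193895 to 69206194) was at 3.67, 7.57 and 5.51 CPM in Cre control and 14.8, 15.7, 19.3 and 11.3 CPM in Hhex KO. Neither overlapped between the groups, and their log2 fold changes were 1.75 ± 0.30 (adjusted p = 0.0148) and 1.46 ± 0.27 (adjusted p = 0.0219). The partners Spc24 (1.55 ± 0.36) and Ndc80 (0.90 ± 0.18) were the other subunits called. Mad2l1, the checkpoint protein that restrains CDC20 (ENSMUSG00000029910.14, chromosome 6, 66535390 to 66547220), was at 25.6, 25.5 and 21.99 CPM in Cre control and 34.8, 43.1, 43.6 and 35.2 CPM in Hhex KO. This is a smaller change on a higher level, 0.69 ± 0.13 (adjusted p = 0.0253), with little spread within the groups. The checkpoint kinase gene Bub1 (1.74 ± 0.37) and Cenpa, the centromeric histone H3 variant (0.55 ± 0.13), were also called. Bub1b, which encodes BUBR1 (1.73 ± 0.50), and the checkpoint kinase gene Ttk (1.45 ± 0.46) were not past the threshold. Nor were Cenpe and Cenpf, a kinetochore motor and a large kinetochore protein, whose log2 fold changes of 1.98 ± 0.53 and 2.34 ± 0.69 carried wide errors.

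The anaphase-promoting complex destroys cyclin B and securin once the checkpoint is satisfied. Its activator Cdc20 (ENSMUSG00000006398.15, chromosome 4, 118432901 to 118437352) was at 6.22, 10.6 and 8.32 CPM in Cre control and 20.5, 23.5, 25.7 and 12.5 CPM in Hhex KO. The libraries did not overlap, and Cdc20 rose by 1.3 ± 0.28 on the log2 scale (adjusted p = 0.0341). Ube2c, the ubiquitin-conjugating enzyme that works with the complex (ENSMUSG00000001403.13, chromosome 2, 164769898 to 164778822), was at 1.499, 9.42 and 6.32 CPM in Cre control and 20.9, 26.2, 30.4 and 7.62 CPM in Hhex KO. Its Hhex KO replicate 4 lay below the highest control, and a log2 fold change of 1.9 ± 0.62 did not pass the test (adjusted p = 0.142). Of the 7 fits on 6 libraries, 1 called Cdc20, that without Hhex KO replicate 4, and none called Ube2c.

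Of 9 genes of spindle motors and microtubule proteins 3 rose. As 1 library was left out, the count ran from 0 (without Cre control replicates 1 or 3) to 8 (without Hhex KO replicate 4). Stmn1, which encodes stathmin, a protein that destabilizes microtubules (ENSMUSG00000028832.11, chromosome 4, 134468320 to 134473843), was at 18.6, 31.1 and 22.7 CPM in Cre control and 47.9, 68.3, 65.97 and 42.3 CPM in Hhex KO. Ckap2l, a spindle protein gene (ENSMUSG00000048327.6, chromosome 2, 129268210 to 129297212), was at 2.32, 5.81 and 4.43 CPM in Cre control and 17.4, 14.1, 14.3 and 7.705 CPM in Hhex KO. Both were free of overlap, with log2 fold changes of 1.22 ± 0.23 (adjusted p = 0.0221) and 1.68 ± 0.36 (adjusted p = 0.0344). For Stmn1, 15.4% of the stretches occur in a pseudogene, Gm11223, so its level is uncertain. Kif15, a plus-end directed spindle motor (ENSMUSG00000036768.6, chromosome 9, 122951046 to 123018733), was at 2.698, 6.25 and 6.701 CPM in Cre control and 27.5, 14.8, 14.6 and 13.8 CPM in Hhex KO. Here Hhex KO replicate 1 stood above the other 3, which were close together, and the change was 1.76 ± 0.37 (adjusted p = 0.0351). The 6 others were not called: Kif2c, a microtubule depolymerase (2.31 ± 0.55), Kif11, the motor Eg5 that separates the spindle poles (1.64 ± 0.49), Nusap1 (1.72 ± 0.46), Hmmr (1.81 ± 0.51), Tacc3 (0.97 ± 0.25) and Dlgap5 (0.88 ± 0.23).

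Of 9 midzone and cytokinesis genes 3 rose. The count ran from 1 (without Cre control replicate 3) to 8 (without Hhex KO replicate 4) when 1 library was dropped. Anln, which encodes anillin, a scaffold of the contractile ring (ENSMUSG00000036777.8, chromosome 9, 22332012 to 22389188), was at 1.57, 3.96 and 3.08 CPM in Cre control and 12.3, 8.54, 12.3 and 9.83 CPM in Hhex KO. Cep55, which recruits the machinery that cuts the midbody (ENSMUSG00000024989.14, chromosome 19, 38055011 to 38074423), was at 2.25, 4.84 and 5.404 CPM in Cre control and 17.4, 18.1, 18.8 and 10.98 CPM in Hhex KO. Kif23, the motor subunit of centralspindlin (ENSMUSG00000032254.10, chromosome 9, 61915905 to 61946774), was at 4.27, 9.94 and 10.97 CPM in Cre control and 28.6, 30.2, 28.2 and 14.5 CPM in Hhex KO. In all 3 the groups were apart, with log2 fold changes of 1.91 ± 0.31 (adjusted p = 0.0123), 1.97 ± 0.32 (0.0123) and 1.59 ± 0.36 (0.0476). Racgap1, the partner of Kif23 in centralspindlin, was far more abundant than Kif23 per length, at 45.5 TPM in Cre control and 74.2 TPM in Hhex KO against 3.46 and 10.3 TPM. Its log2 fold change, 0.72 ± 0.20, missed the threshold (adjusted p = 0.082). Ect2, the RHOA exchange factor that centralspindlin recruits (1.16 ± 0.30), Prc1, the bundler of midzone microtubules (1.53 ± 0.42), and the motor genes Kif4 (1.8 ± 0.45), Kif20a (1.71 ± 0.44) and Kif20b (0.56 ± 0.26) were not called.

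Neither gene of the mitotic chromosome was called. Mki67, the gene of the Ki-67 antigen that coats mitotic chromosomes and is the usual marker of cycling cells (ENSMUSG00000031004.8, chromosome 7, 135689784 to 135716361), was at 7.79, 10.8 and 26.3 CPM in Cre control and 223, 50.8, 32.5 and 55.1 CPM in Hhex KO. The groups did not overlap, but Hhex KO replicate 1 was about 4 times as high as the next library. The log2 fold change, 2.58 ± 0.77, was the highest of the 51 and had the largest error (adjusted p = 0.109). Without Hhex KO replicate 1 it was 1.6 ± 0.45 (adjusted p = 0.109). Top2a, topoisomerase II alpha, which untangles sister chromatids (ENSMUSG00000020914.17, chromosome 11, 98992943 to 99024189), was at 25.03, 80.4 and 83.2 CPM in Cre control and 226, 204, 226 and 67.8 CPM in Hhex KO. For Top2a the low library was Hhex KO replicate 4, which lay under 2 of the 3 controls, and the change was 1.53 ± 0.52 (adjusted p = 0.157).

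**Figure D3:**
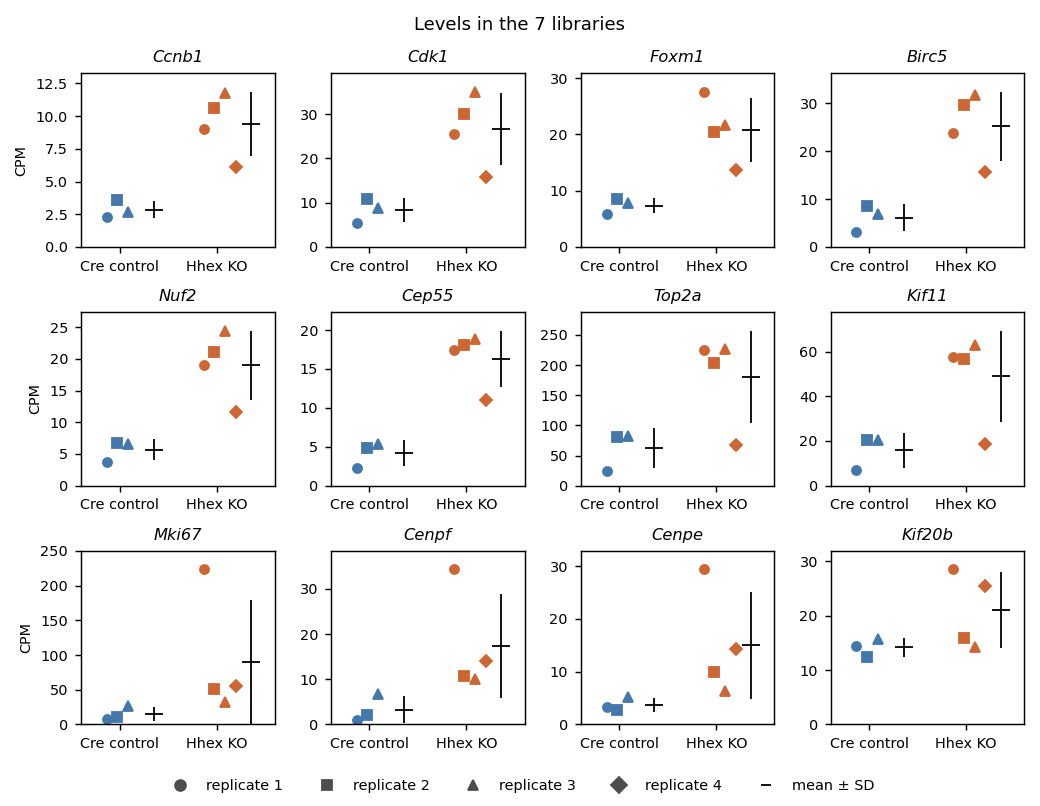
Levels (CPM, linear axes from 0) of 12 of the genes in the 3 Cre control and 4 Hhex KO libraries, with the symbol giving the replicate number and the bar the mean ± SD. In the upper 2 rows Hhex KO replicate 4 (diamond) is the lowest Hhex KO library, down to 67.8 CPM for Top2a; in the lowest row Hhex KO replicate 1 (circle) is the highest, up to 223 CPM for Mki67.

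The 51 genes did not order the libraries in a single way. In most of them Hhex KO replicates 1 to 3 were high, replicate 4 lay between these and the controls, and Cre control replicate 1 was lowest. Replicate 4 was the lowest Hhex KO library in 43 of 51, and Cre control replicate 1 was the lowest of all 7 in 47. Hhex KO replicate 3 was the highest library in 29 genes, replicate 1 in 13, replicate 2 in 8 and replicate 4 in 1 (Cenpa). A smaller set, picked out after its values were seen, behaved differently. Cenpa, Cenpe, Cenpf, Kif20b and Mki67 were higher in Hhex KO replicate 4 than in replicates 2 and 3. Cenpe, Cenpf, Kif15, Kif20b and Mki67 were at over 1.5 times the level of replicates 2 and 3 in replicate 1. Cenpf was at 0.974, 2.2 and 6.701 CPM in Cre control and 34.3, 10.8, 9.96 and 13.99 CPM in Hhex KO. Cenpe was at 3.297, 2.73 and 5.24 CPM in Cre control and 29.4, 10.02, 6.36 and 14.3 CPM in Hhex KO. Kif20b, a midzone motor with little change between the groups, was at 14.5, 12.3 and 15.7 CPM in Cre control and 28.5, 15.9, 14.2 and 25.4 CPM in Hhex KO, and its replicates 2 and 3 lay within or beside the control range.

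The 6 genes of that set differ in length. Their annotated exons add up to 15433 bases for Cenpf, 11020 for Kif15, 10061 for Mki67, 8620 for Cenpe, 6957 for Kif20b and 5860 for Cenpa, against a median of 4363 over the 51. Anln (9063) and Top2a (9013) are longer than 3 of the 6 and were not in that set. In Anln, Hhex KO replicate 4 (9.83 CPM) lay above replicate 2 (8.54 CPM) but below replicate 3 (12.3 CPM). Across the 51 genes, exon length and the log2 ratio of a library to Hhex KO replicate 3 had a Spearman rho of 0.63 for replicate 1, 0.30 for replicate 4 and 0.11 for replicate 2; the points are genes that share the same libraries and are not independent replicates. Malat1, a long RNA kept in the nucleus, was at 918 and 649.7 CPM in Hhex KO replicates 1 and 4 and at 155 and 138 CPM in replicates 2 and 3; the controls were at 619, 243 and 382 CPM. The 3 nuclear-retained RNAs examined (Malat1, Neat1 and Kcnq1ot1) summed to 315 to 804 CPM in the control libraries, and 179 to 1129.7 CPM in those of Hhex KO, so the groups overlapped. The part of RNA composition in the levels of Mki67, Cenpe, Cenpf and Kif20b was not tested.

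**Figure D4:**
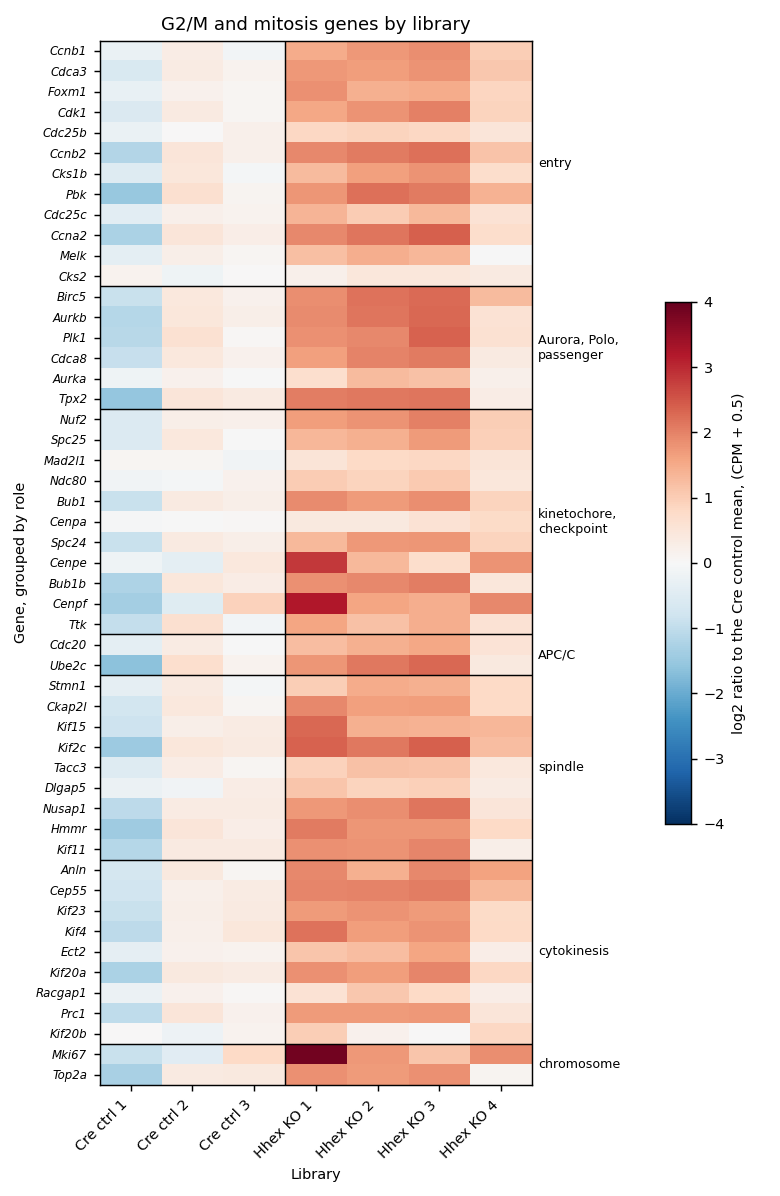
Level of the 51 genes (rows, grouped by role) in the 7 libraries (columns), as the log2 ratio of CPM + 0.5 to the Cre control mean, with red above and blue below that mean. Hhex KO replicates 1 to 3 are raised in nearly every row and replicate 4 less so, with medians over the genes of 1.73, 1.67, 1.77 and 0.76; Cre control replicate 1 is the bluest column, with a median of -0.76.

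How many genes were called rested on which libraries were kept. Without Cre control replicate 3 edgeR called 1 of the 51 (Cep55), beside 0.766% of all genes called higher. When Cre control replicate 1 was dropped it called 3 (Anln, Cdca3 and Cep55), beside 0.723%. Without Cre control replicate 2 there were 11 (1.21% of all genes). Leaving out Hhex KO replicates 1, 2 and 3 gave 11 (1.93%), 10 (1.88%) and 11 (1.58%), while leaving out Hhex KO replicate 4 gave 41 (4.35%). In each of these fits all 51 log2 fold changes stayed above 0, with medians of 1.36 to 1.88. The 10 genes called in all 4 fits without 1 Hhex KO library were Cdk1, Ccnb1, Foxm1, Cdca3, Birc5, Nuf2, Spc25, Stmn1, Anln and Cep55. With all libraries kept, DESeq2 called 47 of 51 (5.14% of all genes higher), missing Cks2, Kif20b, Top2a and Tpx2. Limma-voom with sample quality weights called 47 (12.7%), missing Cenpe, Cenpf, Kif20b and Mki67. A fit on replicates 1 to 3 of each group with the replicate number as a block called 41 (4.11%). Reads of some members may also be split with other genes: 16 of the 51 share exon bases with another annotated gene, among them Foxm1 with Tex52 (144 bases, same strand), Cdc20 with Elovl1 (53, opposite strand) and Ube2c with Tnnc2 (592, opposite strand). The library kit keeps the strand, but the sources used here do not give the strand setting of the counting.

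Genes outside the list were counted from lists of the same pathway, set by name. Of 61 other mitosis genes, 19 rose (31.1%, against 2.68% of all genes), 0 fell and 42 missed the threshold, with a median log2 fold change of 1.28. Aspm, a spindle pole protein gene, was at 2.32, 2.29 and 3.67 CPM in Cre control and 22.6, 13.8, 14.7 and 8.86 CPM in Hhex KO, apart in the groups, and rose by 2.42 ± 0.34 on the log2 scale (adjusted p = 0.00699). Cit, the citron kinase of cytokinesis (1.78 ± 0.29), and Incenp, the scaffold of the passenger complex (0.84 ± 0.14), had the next smallest p-values. Among the others called were Ska1, Parpbp, Pimreg, Gas2l3, Kif22, Troap, Sgo1, Ckap2, Cdca2, Zwilch, Kifc1, Cenpi, Ska3, Cenpn and Sgo2a. Dropping 1 library took the count as low as 1 (without Cre control replicate 1) and as high as 35 (without Hhex KO replicate 4).

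Genes of the S phase, in which DNA is copied, had smaller changes, with a median of 0.72. Of 45, 7 rose (15.6%, against 2.68% of all genes), 0 fell and 38 missed the threshold. Log2 fold changes were positive for 44 of the 45, against 52.7% of all genes. For 29 the unadjusted p-value was under 0.05 (64.4%, against 18.5% of all genes). In 20 every Hhex KO library lay above every control, as it did for 9.37% of all genes. The difference between the lists was not tested. Ccne2, cyclin E2 (1.91 ± 0.21, adjusted p = 0.00209), Tk1, thymidine kinase (1.97 ± 0.33), and Atad2 (0.62 ± 0.10) had the smallest p-values, and Prim1, Hells, Dtl and Dut were the others. The abundant subunits of the replicative helicase were not called, with log2 fold changes of 0.34 for Mcm4, 0.53 for Mcm2 and 0.71 for Mcm3. Over fits on 6 libraries the count ranged from 1 (without Cre control replicate 3) to 19 (without Hhex KO replicate 4).

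A list of 15 genes of the DREAM complex, B-Myb and related RB and E2F family factors went both ways. It had 9 positive and 6 negative log2 fold changes, from -0.48 to 1.81. Foxm1, described above, is not in it. Of the 15 genes 2 rose (13.3%, against 2.68% of all genes), the repressor E2f7 (1.8 ± 0.34, adjusted p = 0.0219) and Tfdp1, the partner of E2F factors (0.94 ± 0.20, 0.0318). In this list 0 fell and 13 missed the threshold, with a median of 0.10. Unadjusted p-values were under 0.05 for 6 of the 15 (40%, against 18.5% of all genes). In 3 of the 15 every Hhex KO library lay above every control, as it did for 9.37% of all genes. In 3 every one lay below, for which the share of all genes is not given here. As 1 library was left out, the count of calls ran from 0 (without Cre control replicates 1, 2 or 3) to 3 (without Hhex KO replicate 4). Mybl2, which encodes B-Myb, was at 0.824, 4.05 and 2.22 CPM in Cre control and 7.77, 7.39, 7.07 and 3.19 CPM in Hhex KO and was not called (1.45 ± 0.50, adjusted p = 0.159). Of 17 subunits and inhibitors of the anaphase-promoting complex 1 rose (5.88%, against 2.68% of all genes), the inhibitor Fbxo5, known as EMI1 (1.02 ± 0.17, adjusted p = 0.015). The other 16 did not pass the test, and the median was 0.06. Unadjusted p-values were under 0.05 for 2 of the 17 (11.8%, against 18.5% of all genes). The count of calls ran from 0 (without Cre control replicates 1, 2 or 3) to 1 (without Hhex KO replicates 1, 2, 3 or 4) when 1 library was dropped. Of 11 tested CDK inhibitors and G1 cyclins and kinases 2 rose (18.2%, against 2.68% of all genes), Cdk6 (1.13 ± 0.17, adjusted p = 0.00988) and Cdk2 (0.76 ± 0.13, adjusted p = 0.0145). In this list 0 fell and 9 did not pass the test, with a median of 0.01. The list had 6 positive and 5 negative log2 fold changes, from -1.09 to 1.13. For 5 of the 11 the unadjusted p-value was under 0.05 (45.5%, against 18.5% of all genes). Dropping 1 library took the count of higher genes as low as 0 (without Cre control replicate 1) and as high as 3 (without Hhex KO replicate 4). The fit without Hhex KO replicate 4 also called 1 gene of this list lower, beside 291 of all 12127 genes tested.

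**Figure D5:**
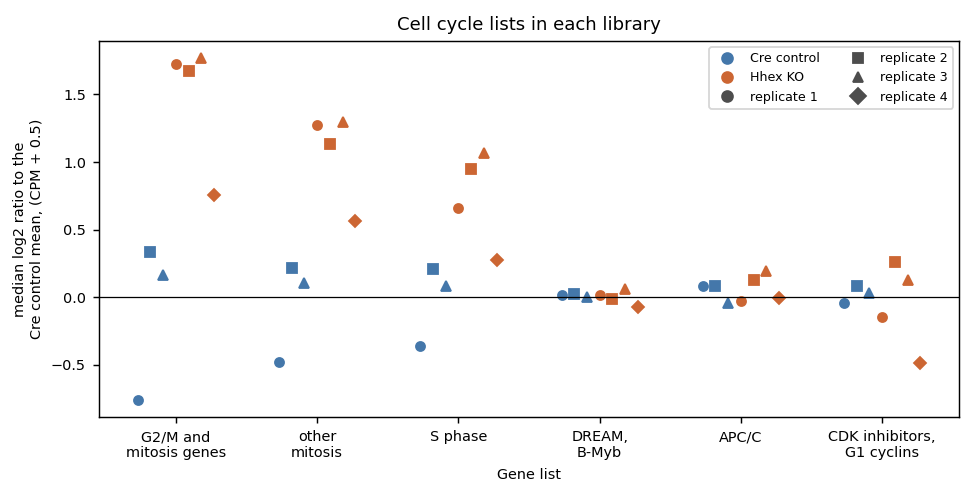
Median over the tested genes of each list of the log2 ratio of CPM + 0.5 to the Cre control mean, 1 point per library; colours give the group and symbols the replicate number. The G2/M and mitosis genes separate the 4 Hhex KO libraries (0.76 to 1.77) from the controls (-0.76 to 0.33), as do other mitosis genes. The S phase genes do so by a narrow margin, with Hhex KO replicate 4 at 0.28 and Cre control replicate 2 at 0.21. The DREAM, APC/C and G1 lists scatter around 0, with Hhex KO replicate 4 lowest in the G1 list.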

How the data were processed

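RNA of sorted splenic NK cells was sequenced as single 75-base reads from libraries that keep the strand, per the labels' protocols. Reads were aligned with STAR to mm10 and counted with featureCounts, per the submitters' processing notes; the sources used here give no versions, annotation release or strand setting. The authors deposited raw counts per gene for all 7 libraries, and 0 columns were left unused. Gene names, coordinates and exon lengths came from GENCODE M21 on mm10, which held 99.8% of the identifiers without their version number.

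Counts were tested with edgeR 4.0.16 in R 4.3.3: filterByExpr by group (minimum count 10, minimum total 15), TMM factors, and the robust quasi-likelihood F test of Hhex KO against Cre control over all 12161 genes that passed, with Benjamini-Hochberg adjustment and a threshold of 0.05. Standard errors were computed as the absolute log2 fold change over the root of F. CPM uses the TMM-scaled library size, TPM the exon lengths. Within groups, chi-square per degree of freedom between libraries was 11.2 to 78.5, so no library was a copy of another. Nothing ties the samples to separate animals, so the p-values refer to the spread among these samples only, part of which may be technical. An exact two-sided permutation test of 4 against 3 cannot go below 0.0286, and was not used. The procedure was tested on simulated data.

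The 51 genes, their roles and the other lists were chosen with earlier results of these data known. Values in every library are given for Mki67, Cdk1 and Foxm1 and the 3 genes of each role with the smallest p, and fold changes for up to 3 called genes of each other pathway list, with every library for Aspm. Ccna2, Cks2, Cenpe, Cenpf, Kif20b, Mybl2 and the Mcm genes were added after their values were seen. The replicate numbers were not taken to pair samples. The alternatives tried were upper-quartile and RLE scaling, no filter, a stricter filter (10 CPM in 3 libraries), DESeq2 1.42.0, limma 3.58.1 (voom, with and without sample quality weights), a replicate block, and leaving out each library. Some items are not reported here.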

Additional observations from a re-analysis of the deposited data

Results flagged for a closer look

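In each of 9 of the 51 genes, 1 Hhex KO library stood apart from the other 3, with a gap to its nearest neighbour above 0.829 of the group's whole range (Dixon's criterion at the 95% level). By this criterion chance alone picks out about 1 in 20 groups; it was applied to 68 sets of values that share the same 4 libraries, 56 of them genes, and picked out 14. Hhex KO replicate 1 stood apart on the high side in 3 genes: Mki67 was at 223 CPM, with the nearest library at 55.1 CPM, Cenpf at 34.3 CPM (nearest 14 CPM) and Kif15 at 27.5 CPM (nearest 14.8 CPM). Hhex KO replicate 4 stood apart on the low side in 6. Top2a was at 67.8 CPM there (nearest 204 CPM), Cdc25b at 109 CPM (nearest 140.4 CPM), Kif11 at 18.8 CPM (nearest 56.5 CPM), Prc1 at 17.004 CPM (nearest 39.98 CPM), Kif23 at 14.5 CPM (nearest 28.2 CPM) and Tpx2 at 11.6 CPM (nearest 39.8 CPM). Outside the list, Mybl2 was at 3.19 CPM in the same library (nearest 7.07 CPM).

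The summed level of the 51 genes in Hhex KO replicate 4, 998 CPM (nearest 1753 CPM), and their median log2 ratio to the Cre control mean, 0.76 (nearest 1.67), stood apart as well. Among marker sums, Hhex KO replicate 2 stood apart for neutrophil markers, at 472 CPM (nearest 82.1 CPM), and for monocyte or macrophage markers, at 246 CPM (nearest 45.3 CPM). Malat1 was at 918 CPM in replicate 1 and 649.7 CPM in replicate 4, against 155 and 138 CPM in replicates 2 and 3; its part in these levels was not tested.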

How the results depend on the processing

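Across 16 alternatives every tested gene of the list kept a positive log2 fold change, with medians of 1.36 (without Cre control replicate 1) to 1.89 (replicate block), and none was called lower. The number called higher moved. It was 22 with RLE scaling, upper-quartile scaling and limma-voom without weights, 23 with no filter and 21 of 45 under the stricter filter, which left Ccnb1 untested. It was 47 with DESeq2, 47 with limma-voom and sample quality weights, and 1 to 41 when each library was left out in turn; the cause was not tested. With the replicate number as a block, on replicates 1 to 3 of each group, 41 genes were called, and 41 on the same 6 libraries without the block. The latter is the same fit as that without Hhex KO replicate 4, and both entries count among the 16 alternatives and in the tallies below. The numbers were not taken as pairing: same-numbered libraries correlated in their deviations from the group mean at 0.33, 0.48 and -0.03, and Cre control replicate 3 correlated better with Hhex KO replicate 1 (0.24). For the 20 genes of the list that the naming rule picks, 256 of 319 values kept their direction and side of the threshold, 47 lost the call (45 when a library was left out, the others Kif15 under the block and Kif23 with no filter), 16 gained it and 0 changed sign. There were 3 against 4 libraries, and the lowest member, Cdc25c, averaged 0.779 CPM in Cre control, so small changes may have been missed. The small change of Cks2, 0.39 ± 0.16, came with 70 to 170 counts per library, and why it was not called was not tested.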

Other observations

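Of the 61 other mitosis genes 2 had a negative log2 fold change, a pattern picked out after its values were seen. Pttg1, which encodes securin, the inhibitor of sister chromatid separation, was at 33.5, 30.8 and 27.7 CPM in Cre control and 21.7, 23.5, 23.4 and 23.7 CPM in Hhex KO. Every Hhex KO library lay below every Cre control library, and the log2 fold change of -0.41 ± 0.11 did not pass edgeR's quasi-likelihood test (adjusted p = 0.0886). The share of all genes lying below in this way is not given here. Pkmyt1, the kinase that inhibits CDK1, had a log2 fold change of -0.21 ± 0.24.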
